A study of Mus musculus with 14 samples.

Results

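The aminoacyl-tRNA synthetases are the enzymes that join each amino acid to its tRNA. The 36 synthetase genes with a symbol in a fixed list were taken from 3 tables of mouse RNA sequencing counts, out of 37310 Ensembl gene identifiers in each table. They comprised 20 cytosolic enzymes, whose symbols carry no final 2, and 16 mitochondrial enzymes, whose symbols end in 2. The choice was by name, with earlier results of these data known.

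Cytosolic and mitochondrial protein synthesis draw on separate pools of charged tRNA, and most synthetases of the mitochondrial matrix are encoded by nuclear genes of their own. Gars (glycine) and Kars (lysine) each serve both compartments, Eprs joins the glutamate and proline enzymes in one protein, and Farsa and Farsb are the subunits of the cytosolic phenylalanine enzyme. Several cytosolic enzymes (among them Eprs, Iars, Lars, Mars1, Qars, Rars, Kars and Dars) sit together in the multisynthetase complex. Transcripts of many cytosolic synthetases are known targets of ATF4, the transcription factor of the amino acid and stress response, and β-cells are secretory cells with a heavy demand for protein synthesis.

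The study measured wild-type pancreatic β-cells from neonates at postnatal day 6 (3 libraries) and adults at day 45 (3 libraries), whole islets of mice 8 weeks old labelled TSC1 KO or control with the prefix RC (2 libraries each), and whole islets of mice 4 weeks old labelled Db or control with the prefix BKS (2 libraries each). The strain of all 14 libraries was given as C57BL/6. The series design calls the knockout a β-cell TSC1 knockout, a loss of an mTORC1 inhibitor, and names no Cre driver; it does not say how the β-cells were obtained or whether animals were pooled. Among the neonatal columns 2 were headed number 3 and none number 2; they are called neonatal 3a and neonatal 3b.

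Levels are given as CPM, the count of a gene relative to its library's total, scaled with edgeR's TMM factors within each table, and are not compared between tables. Differences are log2 fold changes ± SE from edgeR's quasi-likelihood test over all genes tested in a table, with Benjamini-Hochberg adjusted p over all of them and a threshold of 0.05. All 36 synthetases passed the filter on low counts in each of the 3 comparisons. Whether the libraries of the groups overlap is given only as a description of the printed levels. For genes already called it adds no support, and the share of all genes without overlap was not counted. No source used here says that the libraries of a group came from separate animals, so the p-values measure the spread between these libraries, which may be technical. Total gene counts ran from 3507929 to 17688772 per library. Counting without normalization factors moved the median log2 difference of all genes from -0.03 to -0.19 in adult against neonatal β-cells, from 0.00 to -0.25 in TSC1 KO against control islets and from -0.03 to 0.29 in Db against control islets. In the same setting the numbers called up and down went from 484 and 515 to 321 and 872, from 1252 and 1451 to 756 and 1961, and from 3488 and 3431 to 3983 and 1562.

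The labels could be checked in part. Tsc1 transcripts stood at 25.1 and 54.1 CPM in the control islets and at 31.0 and 34.5 CPM in those labelled TSC1 KO, a log2 difference of -0.28 ± 0.38 (adjusted p = 0.638), so the whole-islet level of this gene does not separate the groups. Lepr, the leptin receptor gene altered in db mice, was too low to be tested in the Db table. The 9 β-cell markers were all detected in every library of the 3 tables. In the β-cell table their summed level was 21270 to 29260 CPM in neonates and 50680 to 84920 CPM in adults, and the summed level of 6 endothelial markers was at most 26.9 CPM. Other islet endocrine markers summed to 1322 to 2597 CPM in neonates and 608 to 2488 CPM in adults, with 2 of 9 tested called lower in adults. Duct markers summed to 433 to 540 CPM in neonates and 240 to 277 CPM in adults, with 3 of 7 called lower. Acinar markers summed to 129 to 171 CPM in neonates and 81.2 to 118 CPM in adults, with 1 of 8 tested called lower. Mesenchymal markers summed to 166 CPM in neonatal 3b and to 5.78 to 38.3 CPM in the other β-cell libraries.

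Promoter windows of RefSeq (GRCm38.p6), 250 bases before to 50 after each gene's start, were matched for 13 cytosolic and 14 mitochondrial synthetases. Cars, Hars, Lars, Nars, Rars, Vars, Wars, Hars2 and Pars2 had no window among those used. The 8-letter motif TGATGNAA, the core of the response element that ATF4 binds with C/EBP partners, was searched on both strands (as TTNCATCA on the other). It was present in 5 of the 13 cytosolic windows (38.5%) and in 0 of the 14 mitochondrial windows, against 1304 of the 32851 windows used (3.97%). A match is a description of the letters, not of binding. For Aars, Gars, Iars, Tars and Yars a match each is shown because the cytosolic genes that hold them are followed through the results below; each line gives 30 bases along the gene's strand with the motif in capitals.
Aars, chr8:111033840-111033869, plus strand, bases 10 to 17 of the transcript: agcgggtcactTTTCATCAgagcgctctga
Gars, chr6:55037960-55037989, plus strand, 23 to 30 bases before the start: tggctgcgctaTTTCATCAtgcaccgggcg
Iars, chr13:49682126-49682155, plus strand, bases 8 to 15 of the transcript: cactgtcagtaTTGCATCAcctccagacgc
Tars, chr15:11399655-11399684, minus strand, 8 to 15 bases before the start: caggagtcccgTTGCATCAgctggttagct
Yars, chr4:129189895-129189924, plus strand, bases 4 to 11 of the transcript: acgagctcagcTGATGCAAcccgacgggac

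Per kilobase (kb) of the longest transcript, Gars was the most abundant synthetase of β-cells, at 185 ± 26.6 CPM per kb in neonates and 169 ± 32.2 in adults (SD, n = 3). Eprs followed at 79.6 ± 17.5 and 76.9 ± 6.98 CPM per kb, below every library's Gars level. The next places were not separated by their spread. In neonates Sars, the serine enzyme, stood at 60.2 ± 22.5, Wars, the tryptophan enzyme, at 56.2 ± 9.70, and Nars, the asparagine enzyme, at 52.9 ± 32.6 CPM per kb. In neonatal β-cells ranks 23 to 36 of the 36 levels per kb were all mitochondrial enzymes, from Iars2 at 17.7 ± 1.43 down to Mars2 at 0.31 ± 0.269 CPM per kb, which had no counts in neonatal 3b. Lars2 and Rars2 were the mitochondrial enzymes above that range. In whole islets Lars2 ranked first in all 4 groups, at 641 ± 49.6 CPM per kb in RC control islets, where Sars came next at 49.6 ± 6.21 (SD, n = 2); its sequence limits are given with its values below. In BKS control islets Lars2 stood at 99.9 ± 18.5, Gars at 35.1 ± 10.1 and Sars at 27.1 ± 9.59 CPM per kb, and the last of these did not differ from Gars beyond its spread.

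**Figure D1:**
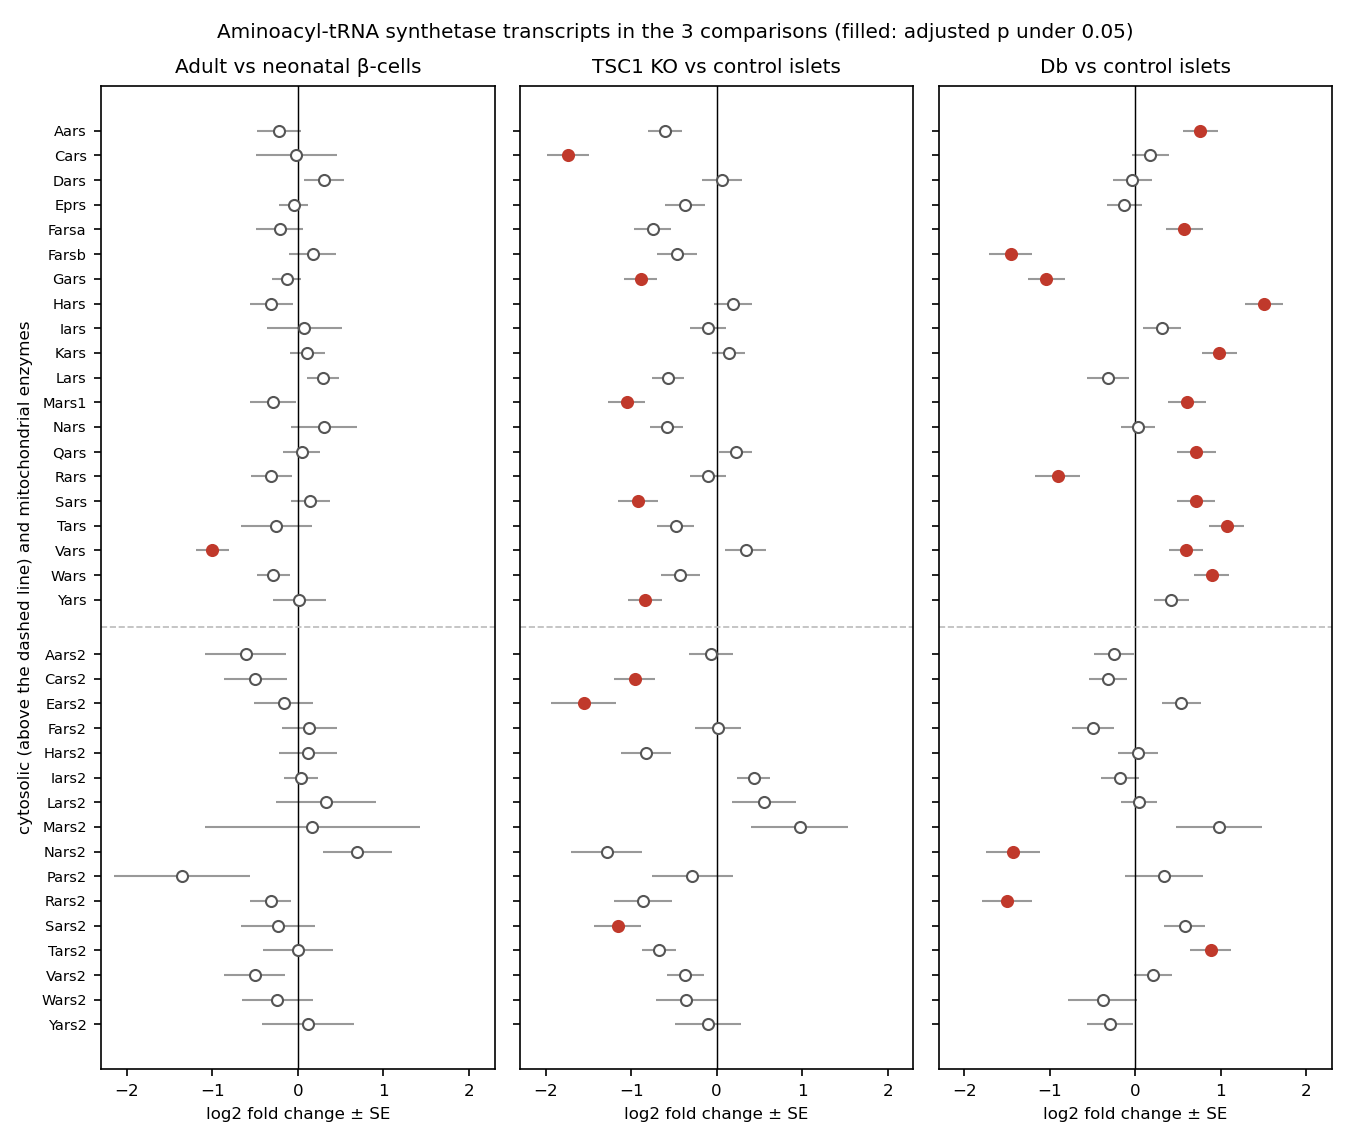
Log2 fold change ± SE (horizontal axis) of each of the 36 synthetases (vertical axis), cytosolic above the dashed line and mitochondrial below it, in the 3 comparisons; filled points passed an adjusted p of 0.05. Filled points number 1 in β-cells, 8 in TSC1 KO islets, all of them below 0, and 16 in Db islets, 11 above and 5 below 0.

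Between neonatal and adult β-cells, the synthetases differed little. The background was low, with 6.98% of all genes past the threshold, 3.38% up and 3.6% down in adults. Of the 20 cytosolic enzymes 1 fell and 0 rose in adults, and of the 16 mitochondrial enzymes 0 were called in either direction. At an unadjusted p under 0.05 the counts were the same, 1 and 0, where 2978 of all 14304 genes were under it. DESeq2 and limma-voom also called 1 cytosolic enzyme lower and 0 mitochondrial enzymes. The median log2 fold change was -0.03 for the cytosolic and -0.08 for the mitochondrial enzymes, beside -0.03 for all genes.

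The enzyme that fell was Vars, which charges the valine tRNA. Vars stood at 116, 147 and 154 CPM in the neonatal libraries and at 72.6, 74.7 and 61.2 CPM in the adult ones. The groups did not overlap, and every adult library lay below the lowest neonatal one. The log2 fold change was -1.0 ± 0.20 (adjusted p = 0.00585). The part of the lower duct, endocrine and acinar markers in this difference was not tested. In these bulk libraries fewer cells of a type and less RNA per cell cannot be told apart. Vars has the highest transcript GC content of the 36 (60.9%), and fold changes fell with GC content across genes in this table (Spearman -0.24 over 13757 genes, -0.42 over the 36 synthetases, a description across genes of the same libraries). With the GC trend removed, a setting chosen after seeing the data, the change of Vars was -0.61 (adjusted p = 0.0862); taking out the length trend as well gave -0.54 (adjusted p = 0.0992).

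The largest differences that did not pass were Pars2 (proline), Nars2 (asparagine) and Aars2 (alanine), all mitochondrial. Pars2 stood at 6.11, 13.4 and 8.82 CPM in neonates and at 7.63, 0.785 and 2.64 CPM in adults, a log2 difference of -1.35 ± 0.80 (adjusted p = 0.369). Nars2 differed by 0.69 ± 0.40 (adjusted p = 0.361) and Aars2 by -0.61 ± 0.47 (adjusted p = 0.533). Among the enzymes that serve both compartments, Gars stood at 442, 504 and 377 CPM in neonates and 341, 376 and 488 CPM in adults, with overlapping groups, and Kars differed by 0.11 ± 0.21 (adjusted p = 0.842). Eprs differed by -0.05 ± 0.17 (adjusted p = 0.92) and Wars, an interferon-inducible gene, by -0.29 ± 0.19 (adjusted p = 0.445).

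Within the neonates, the library called 3a stood apart in its cytosolic synthetases. Their summed level was 3864 CPM in neonatal 3a, against 2581 and 2420 CPM in the other neonatal libraries and 2690 to 2961 CPM in the adults. The 15 mitochondrial enzymes other than Lars2 summed to 404 CPM in the same library and to 339 to 415 CPM in the other 5. Neonatal 3a was the highest of the 6 libraries for 11 of the 20 cytosolic enzymes (55.0%), for 4 of the 16 mitochondrial ones (25.0%) and for 22.1% of all genes tested. The 11 were Aars, Cars, Eprs, Gars, Iars, Mars1, Nars, Sars, Tars, Wars and Yars. They include all 5 genes with a motif shown above. They also include Eprs, Mars1 and Sars, whose windows held no match, and Cars, Nars and Wars, which had no window. Any part of the motif in this was not tested.

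Cars, the cysteine enzyme, stood at 196 CPM in neonatal 3a and between 52.7 and 114 CPM in the other 5 libraries. Tars, the threonine enzyme, stood at 151 CPM against 36.6 to 84.7 CPM, and Iars, the isoleucine enzyme, at 244 CPM against 77.4 to 154 CPM. For these 3 enzymes neonatal 3a held 2.29, 2.22 and 2.10 times the mean of the other libraries. Gars at 504 CPM, against 341 to 488 CPM, was the member of the 11 closest to the others, and Qars, the glutamine enzyme, went the other way with 63.5 CPM against 73.4 to 92.2 CPM. The ratio was at least 1.5 for 8 of 20 cytosolic enzymes (40.0%), 2 of 16 mitochondrial ones (12.5%) and 18.6% of all genes tested.

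Of 30 tested genes of the ATF4 response other than synthetases, 19 had a ratio of at least 1.5 (63.3%), with a median of 1.64 against 0.94 for all genes. Chac1, a glutathione-degrading enzyme, stood at 70.8 CPM in neonatal 3a and at most 32.5 CPM elsewhere. Psat1, a serine synthesis enzyme, stood at 34.9 CPM against at most 9.21 CPM, and Vldlr, a lipoprotein receptor, at 202 CPM against at most 58.2 CPM. Atf3, Ddit4, Pycr1, Nupr1 and Cth were below the mean of the other libraries in neonatal 3a. Its total gene count (14166621) lay within the range of the other β-cell libraries (12696006 to 16222921), as did its insulin share. What sets this library apart was not tested.

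**Figure D2:**
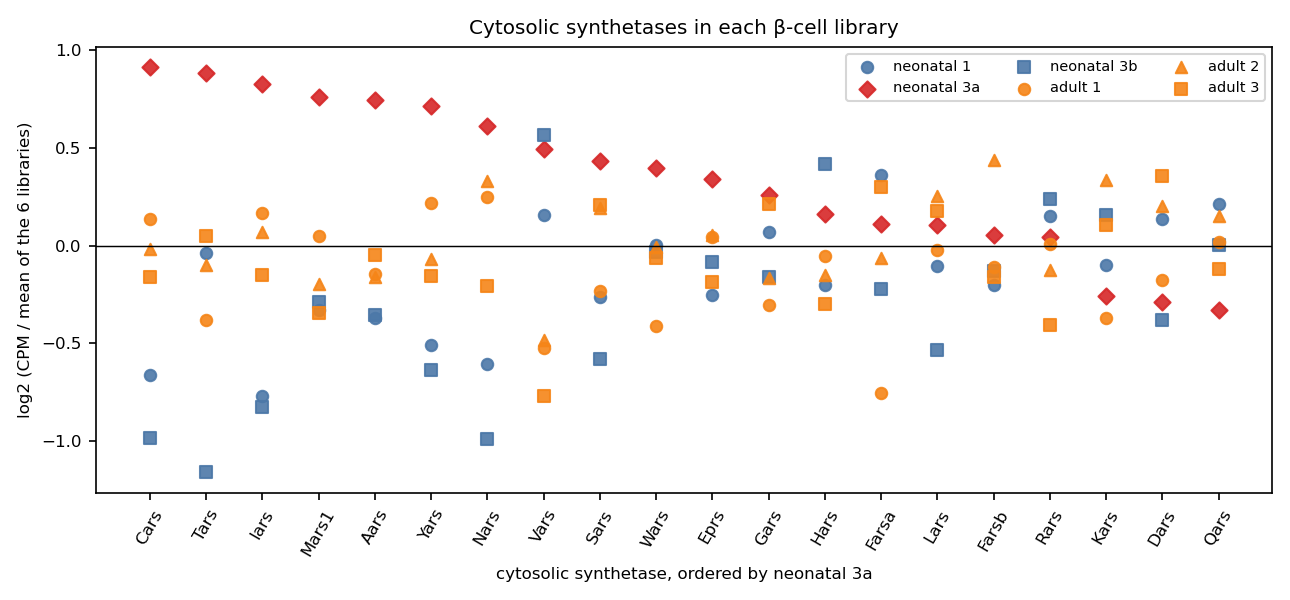
CPM of each cytosolic synthetase in the 6 β-cell libraries, as log2 of the ratio to the mean of the 6 (vertical axis), with the genes ordered by neonatal 3a (horizontal axis). Neonatal 3a (diamonds) is the highest library for 11 of the 20 enzymes, from Cars to Gars, with Vars in between where neonatal 3b is higher.

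The comparison of ages depends on this library. Neonatal 3a was singled out by its cytosolic synthetase levels, so leaving it out raises the adult difference of enzymes highest there by construction. Without neonatal 3a, 3 cytosolic enzymes rose in adults and 1 fell, against 4.39% and 4.66% of all genes tested, and the cytosolic median was 0.20. The 3 were Cars (0.81 ± 0.21, adjusted p = 0.0158), Iars (0.84 ± 0.19, adjusted p = 0.00537) and Nars (0.93 ± 0.20, adjusted p = 0.00289). With all 6 libraries the same genes stood at -0.02, 0.07 and 0.30, and none of these 3 passed. Vars fell without neonatal 3a as well (-0.96 ± 0.20, adjusted p = 0.00257). The mitochondrial median was -0.20 and 0 mitochondrial enzymes were called there, with 0 also at an unadjusted p under 0.05.

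Few of the other genes around tRNA charging were called, where 6.98% of all genes were. Of 11 scaffold and tRNA handling genes, 10 accessories of mitochondrial charging and 8 cytosolic elongation factors, edgeR, DESeq2 and limma-voom called 0. An unadjusted p under 0.05 was found for 2, 2 and 0 of them, beside 2978 of all 14304 genes. The elongation factor list counts the kinase gene Eef2k. Of 10 factors of mitochondrial translation 1 fell, the initiation factor Mtif3 (-1.29 ± 0.32, adjusted p = 0.0225). Among the 30 ATF4 response genes 1 rose, the stress protein gene Nupr1 (2.43 ± 0.71, adjusted p = 0.0489). Another 1 fell, Sesn2, an inhibitor of mTORC1 signalling (-0.88 ± 0.25, adjusted p = 0.0469). Leaving out neonatal 1 or any adult library ended both calls, as did removing the GC trend. With limma-voom 0 of the 30 were called. Mtif3 lost its call without adult 1, adult 3 or neonatal 3b.

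**Figure D3:**
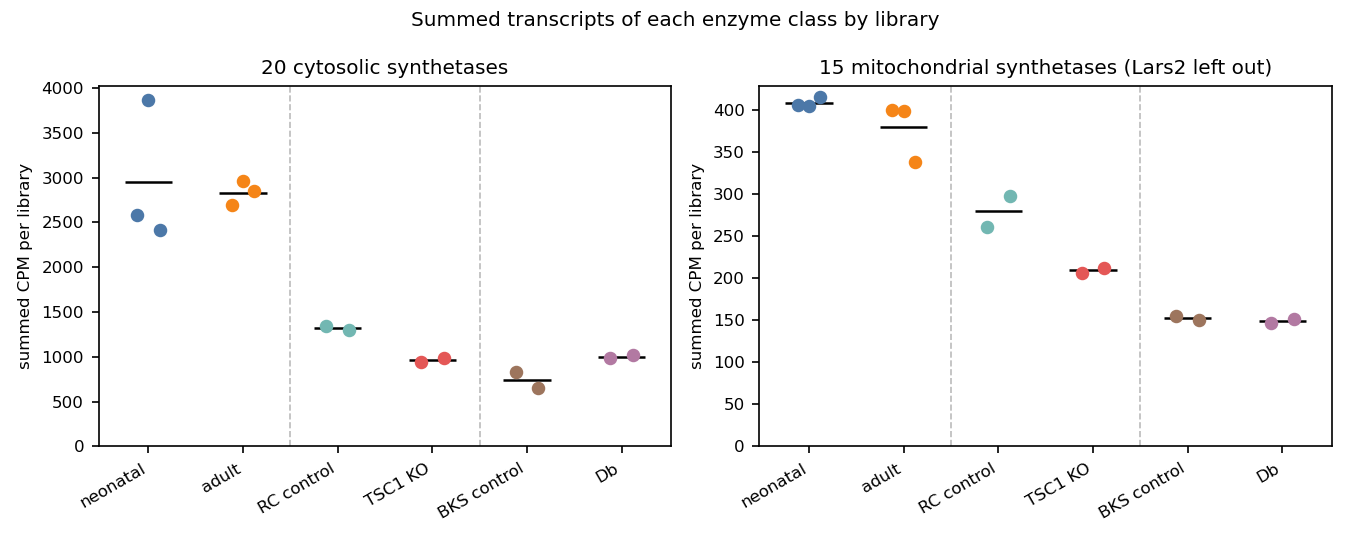
Summed CPM (vertical axis, from 0) of the 20 cytosolic enzymes on the left and of the 15 mitochondrial enzymes other than Lars2 on the right, by group; each point is a library, horizontal lines are group means, and dashed lines separate tables whose levels are not compared. Neonatal 3a is the high point at 3864 CPM on the left, and both TSC1 KO libraries lie below both of their controls in both classes.

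In islets labelled TSC1 KO, the synthetases called were all lower than in controls, and most members of both classes were not called. Of all genes tested, 18.6% were called, 8.63% higher and 10.0% lower. Of the 20 cytosolic enzymes 5 fell (25.0%) and 0 rose, and of the 16 mitochondrial enzymes 3 fell (18.8%) and 0 rose; 0 members were higher at an unadjusted p under 0.05 or with DESeq2 or limma-voom. Unadjusted p-values under 0.05 were found for 9 cytosolic and 7 mitochondrial enzymes, all lower. Of all 14515 genes tested, 5290 had such a p-value, in either direction. The median log2 fold change was -0.47 for the cytosolic and -0.36 for the mitochondrial enzymes, beside 0.00 for all genes. Summed cytosolic levels were 1344 and 1303 CPM in controls and 942 and 982 CPM in the knockout libraries, and the mitochondrial sum without Lars2 was 261 and 298 CPM against 206 and 212 CPM.

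Cars fell most among the cytosolic enzymes. It stood at 77.7 and 65.2 CPM in controls and at 17.9 and 25.1 CPM in the knockout libraries, a log2 fold change of -1.74 ± 0.25 (adjusted p = 0.0135). Both knockout libraries lay far below both controls. Mars1, the methionine enzyme, stood at 59.2 and 48.0 CPM against 27.7 and 23.8 CPM (-1.05 ± 0.22, adjusted p = 0.0278). Sars stood at 193 and 161 CPM against 88.3 and 99.3 CPM (-0.92 ± 0.23, adjusted p = 0.0438). Gars stood at 98.6 and 106 CPM against 54.8 and 55.9 CPM (-0.89 ± 0.19, adjusted p = 0.0318). Yars, the tyrosine enzyme, stood at 65.1 and 55.0 CPM against 33.6 and 33.4 CPM (-0.84 ± 0.20, adjusted p = 0.0371). For all 5 the groups did not overlap, which was also so for members not called, such as Eprs and Wars. Gars and Yars hold a motif shown above; Aars (-0.60 ± 0.20, adjusted p = 0.0844), Tars (-0.48 ± 0.22, adjusted p = 0.164) and Iars (-0.10 ± 0.21, adjusted p = 0.765) hold one too and did not pass.

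The mitochondrial enzymes that fell were Ears2, Sars2 and Cars2. Ears2, which charges glutamate and also supplies the precursor of mitochondrial glutaminyl-tRNA, stood at 14.2 and 22.2 CPM in controls and 4.89 and 7.69 CPM in the knockout libraries (-1.56 ± 0.38, adjusted p = 0.0399). Sars2 stood at 15.2 and 15.4 CPM against 6.99 and 6.69 CPM (-1.16 ± 0.28, adjusted p = 0.0384). Cars2 stood at 31.8 and 25.3 CPM against 15.8 and 13.4 CPM (-0.96 ± 0.24, adjusted p = 0.0432). The libraries of each gene separated by group with no overlap, as did those of Nars2 and Rars2, which were not called. The cysteine and serine enzymes of both compartments were thus among the 8 members called. DESeq2 and limma-voom each called 1 mitochondrial enzyme lower (of 16), but not the same one. DESeq2 called Ears2 and limma-voom called Sars2, and neither called Cars2.

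The largest differences that did not pass were Nars2 (-1.29 ± 0.42, adjusted p = 0.0807), Mars2 (0.97 ± 0.57, adjusted p = 0.266) and Rars2 (-0.86 ± 0.34, adjusted p = 0.125). Eprs differed by -0.37 ± 0.23 (adjusted p = 0.298), Kars by 0.14 ± 0.19 (adjusted p = 0.634) and Wars by -0.43 ± 0.23 (adjusted p = 0.23). Of the 8 enzymes of the multisynthetase complex 1 fell (Mars1) and of the other 12 cytosolic enzymes 4 fell, beside 10.0% of all genes. The medians of these sets were -0.10 and -0.59; the difference between the sets was not tested.

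None of the 8 calls held without either TSC1 KO library. Without TSC1 KO 1 or without TSC1 KO 2 edgeR called 0 genes of the whole table, with 3535 and 3061 genes at an unadjusted p under 0.05. Among the synthetases 5 cytosolic and 3 mitochondrial enzymes were at an unadjusted p under 0.05 in each case. The cytosolic median was -0.56 and -0.45 in the same fits.

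The islets labelled TSC1 KO also differed in their cell markers. The summed level of the 9 β-cell markers was 228500 and 257700 CPM in controls and 11130 and 11720 CPM in the knockout libraries, with 8 of 9 markers called lower and 0 of 9 at 0. Other islet endocrine markers summed to 33970 and 28310 CPM against 7887 and 3177 CPM, with 6 of 9 tested called lower. Endothelial markers summed to 1792 and 1840 CPM against 4084 and 3113 CPM, and stomach mucosa markers, with 4 of 8 at 0 in each knockout library, to 19.8 and 10.9 CPM against 190 and 320 CPM. Mitochondrially encoded genes took 12.4% and 9.05% of gene counts in controls and 39.8% and 46.8% in the knockout libraries. The part of these differences in the lower synthetase levels was not tested.

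Of the pathway genes around the synthetases, those of the ATF4 response held the most calls in these islets. Of 29 tested, 8 fell and 2 rose, beside 10.0% and 8.63% of all genes, and their median was -0.32. Chac1 stood at 26.4 and 25.5 CPM in controls and 2.56 and 4.35 CPM in the knockout libraries (-2.94 ± 0.33, adjusted p = 0.0109). Slc7a5, a transporter of large neutral amino acids, fell by 2.49 ± 0.28 on the log2 scale (adjusted p = 0.0109), and Asns, asparagine synthetase, by 1.53 ± 0.20 (adjusted p = 0.0124). Stc2, a secreted glycoprotein gene, rose from 0.79 and 0.294 CPM to 12.6 and 13.0 CPM (4.52 ± 0.52, adjusted p = 0.0109). Atf4 itself stood at 348 and 303 CPM against 187 and 173 CPM (-0.86 ± 0.26, adjusted p = 0.0683). Of 11 scaffold and tRNA handling genes 1 fell (Aarsd1, an alanyl-tRNA editing protein, -0.98 ± 0.23, adjusted p = 0.0359), which DESeq2 did not call. EdgeR called 0 of 10 mitochondrial charging accessories, 0 of 8 cytosolic elongation factors and 0 of 10 factors of mitochondrial translation. An unadjusted p under 0.05 was found for 2, 1 and 2 of them, beside 5290 of all 14515 genes. Among these sets DESeq2 and limma-voom each called 1 gene, the kinase gene Eef2k of the elongation factor list. With edgeR it differed by 1.40 ± 0.39 (adjusted p = 0.0566). As for the synthetases, none of these calls held without either TSC1 KO library.

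In Db islets most of the called cytosolic enzymes were higher, and few mitochondrial enzymes were called. Of all genes tested, 48.2% were called, 24.3% higher and 23.9% lower, so that a call was common in this table. Of the 20 cytosolic enzymes 10 rose (50%) and 3 fell (15%), and of the 16 mitochondrial enzymes 1 rose (6.25%) and 2 fell (12.5%). DESeq2 called 8 cytosolic enzymes higher, without Farsa and Mars1, and 3 lower, and limma-voom called 10 and 3. The median log2 fold change was 0.50 for the cytosolic and -0.07 for the mitochondrial enzymes, beside -0.03 for all genes. The cytosolic sum was 831 and 654 CPM in controls and 984 and 1017 CPM in Db islets, whereas the mitochondrial sum without Lars2 was 154 and 150 CPM against 147 and 151 CPM. The ratio of these sums was 5.38 and 4.35 in controls and 6.68 and 6.72 in Db islets. Both Db libraries lay above both controls in the cytosolic sum and in the ratio, and the mitochondrial sums overlapped. Without normalization factors, which moved the median of all genes to 0.29, Ears2, Sars2 and Mars2 passed as higher as well, so that 4 mitochondrial enzymes were higher and 2 lower. The difference between the classes was not tested.

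Hars, the histidine enzyme, rose most. It stood at 13.4 and 13.2 CPM in controls and 35.3 and 40.2 CPM in Db islets, a log2 fold change of 1.51 ± 0.22 (adjusted p = 2.64e-06). Exons of Hars and Hars2 overlap by up to 195 bases on opposite strands, and Hars2 stood at 13.0 and 11.9 CPM against 13.7 and 11.8 CPM, with no group difference beyond its spread (0.03 ± 0.24, adjusted p = 0.924). Tars stood at 22.5 and 25.5 CPM against 53.5 and 47.2 CPM (1.07 ± 0.21, adjusted p = 0.000125). Kars stood at 30.3 and 29.6 CPM against 54.4 and 64.0 CPM (0.98 ± 0.20, adjusted p = 0.000264). In each of these genes the lower Db library was clear of the higher control.

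Wars stood at 44.1 and 40.6 CPM in controls and 74.3 and 82.8 CPM in Db islets (0.89 ± 0.20, adjusted p = 0.000605). Aars, the alanine enzyme, stood at 77.2 and 66.1 CPM against 112 and 131 CPM (0.76 ± 0.20, adjusted p = 0.00272). Sars stood at 121 and 72.4 CPM against 167 and 150 CPM (0.71 ± 0.22, adjusted p = 0.00989). The control libraries of Sars were farther apart than those of Aars or Wars, and none of the 3 genes overlapped between groups. Qars (0.71 ± 0.22), Mars1 (0.61 ± 0.22), Vars (0.59 ± 0.20) and Farsa (0.57 ± 0.22) also rose, with adjusted p from 0.0101 to 0.0294 and no overlap. Tars2, the mitochondrial threonine enzyme, stood at 9.42 and 8.47 CPM against 15.1 and 17.9 CPM (0.88 ± 0.24, adjusted p = 0.00381).

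Farsb fell in the same islets in which Farsa, the other subunit of the phenylalanine enzyme, rose. The call of Farsa did not hold with DESeq2. Farsa stood at 18.3 and 17.3 CPM in controls and 24.3 and 28.7 CPM in Db islets, and Farsb at 18.1 and 14 CPM against 5.86 and 5.87 CPM (-1.46 ± 0.25, adjusted p = 3.18e-05). Exons of Farsb overlap Sgpp2, a lipid phosphatase gene on the opposite strand, by up to 248 bases. Sgpp2 was lower too (-0.64 ± 0.23, adjusted p = 0.022). The call of Sgpp2 did not hold with DESeq2, without normalization factors or with the GC trend removed. Gars stood at 101 and 66.6 CPM against 40.3 and 41.2 CPM (-1.04 ± 0.21, adjusted p = 0.000221). Rars, the arginine enzyme, stood at 11.1 and 11.4 CPM against 6.80 and 5.24 CPM (-0.91 ± 0.26, adjusted p = 0.00572). All 3 were lower in both Db libraries than in either control.

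The mitochondrial enzymes Rars2 and Nars2 fell as well. Rars2 stood at 9.21 and 7.70 CPM in controls and 2.99 and 3.01 CPM in Db islets (-1.5 ± 0.29, adjusted p = 0.000147). Nars2 stood at 5.89 and 10.6 CPM against 3.21 and 2.86 CPM (-1.43 ± 0.32, adjusted p = 0.000504). Exons of Nars2 overlap C230038L03Rik on the opposite strand by up to 284 bases, and that gene stood at 2.57 and 4.24 CPM against 2.49 and 1.79 CPM (-0.66 ± 0.37, adjusted p = 0.146). The arginine enzymes of both compartments thus fell together. The largest differences that did not pass were Mars2 (0.97 ± 0.50, adjusted p = 0.11), Sars2 (0.58 ± 0.24, adjusted p = 0.0512) and Ears2 (0.54 ± 0.23, adjusted p = 0.0522). Eprs, at 45.2 and 35.5 CPM against 38.4 and 35.4 CPM, differed by -0.13 ± 0.20 (adjusted p = 0.618).

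**Figure D4:**
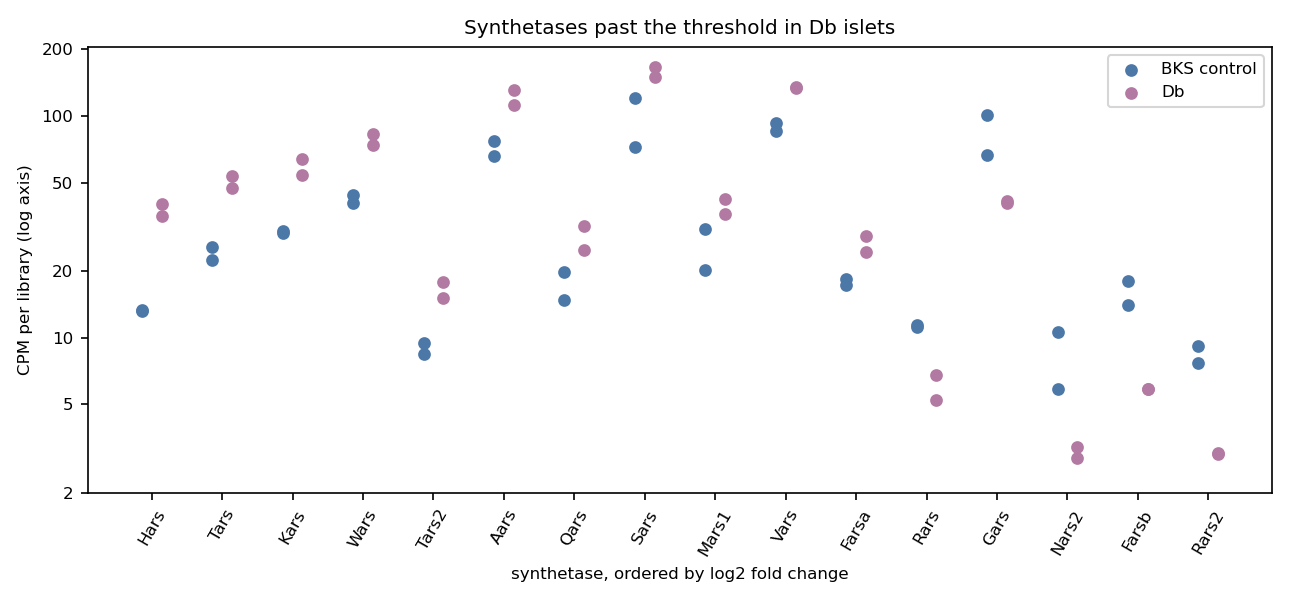
CPM in each library (vertical log axis) of the 16 synthetases past the threshold in Db islets, ordered by fold change (horizontal axis), for 2 control and 2 Db libraries. The groups do not overlap for any of the 16, which were chosen by the test on these same values. The 5 genes at the right, from Rars to Rars2, are lower in Db islets.

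Enzymes of the multisynthetase complex moved in both directions. Of its 8 enzymes, Kars, Qars and Mars1 rose, Rars fell and Dars, Eprs, Iars and Lars were not called, with a median of 0.14. Of the other 12 cytosolic enzymes 7 rose and 2 fell, with a median of 0.58. Of all genes, 24.3% were higher and 23.9% lower, and the difference between the sets was not tested. Of the 5 genes with a motif shown above, Aars and Tars rose, Gars fell, and Yars (0.42 ± 0.21, adjusted p = 0.0961) and Iars (0.32 ± 0.22, adjusted p = 0.248) did not pass.

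Fold changes in Db islets rose with transcript GC content (Spearman 0.40 over 13855 genes, 0.39 over the 36 synthetases). The median GC content of synthetases with a difference above 0 was 51.1%, and of those below 0 it was 46.4%. With the GC trend removed, 8 cytosolic enzymes were higher and 2 lower, and 2 mitochondrial enzymes were higher and 3 lower. Aars (0.29, adjusted p = 0.237), Sars (0.34, adjusted p = 0.241), Mars1 (0.20, adjusted p = 0.472) and Rars (-0.60, adjusted p = 0.0543) lost their calls there, whereas Dars, Mars2 and Fars2 gained one. Without Db 2 the cytosolic counts were 5 higher and 2 lower, and without normalization factors they were 10 and 1, with Gars (adjusted p = 0.0515) and Rars no longer passing. Farsb, Hars, Kars, Tars, Wars, Nars2 and Rars2 kept their calls under all 13 alternatives tried.

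The Db islets differed in their markers too. β-cell markers summed to 592900 and 912200 CPM in controls and 452500 and 391600 CPM in Db islets, with 7 of 9 called lower. Acinar markers summed to 72 and 76.6 CPM against 383 and 229 CPM, with 8 of 10 tested called higher and 1 of 14 at 0 in each Db library. Duct markers summed to 293 and 290 CPM against 747 and 712 CPM, with 2 of 6 tested called higher and 2 lower. The part of these differences in the synthetase levels was not tested.

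Among the genes around the synthetases, calls in Db islets are read against the 48.2% of all genes called, 24.3% higher and 23.9% lower. Of 8 cytosolic elongation factors 6 rose, led by Eef2, the translocation factor, at 715 and 491 CPM in controls and 2185 and 2318 CPM in Db islets (1.90 ± 0.24, adjusted p = 3.02e-07). Of 11 scaffold and tRNA handling genes 4 rose, among them the D-aminoacyl-tRNA deacylase Dtd1 (1.76 ± 0.26, adjusted p = 4.01e-06) and the tRNA exporter Xpot (0.68 ± 0.22, adjusted p = 0.0109), and 3 fell, among them Ssb, the La RNA-binding protein (-0.96 ± 0.23, adjusted p = 0.00121). On the mitochondrial side, where the called shares lay below that of all genes, 2 of 10 charging accessories fell (Gatc and Mto1). Of 10 elongation and release factors 1 rose, the elongation factor Tufm (1.45 ± 0.33, adjusted p = 0.000725), and 2 fell, with Guf1, a ribosome back-translocation factor, at 19.2 and 16.8 CPM against 4.37 and 2.91 CPM (-2.31 ± 0.27, adjusted p = 8.88e-08). Without normalization factors Ssb, Gatc and Mto1 lost their calls, and Ssb also lost its call with the GC trend removed.

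Of 28 tested genes of the ATF4 response, 18 rose and 4 fell in Db islets, beside 24.3% and 23.9% of all genes. Their median was 0.94. Pycr1, a proline synthesis enzyme, stood at 14.8 and 15.5 CPM in controls and 118 and 137 CPM in Db islets (3.07 ± 0.22, adjusted p = 1.32e-11). Phgdh, the first enzyme of serine synthesis, rose by 2.45 ± 0.28 on the log2 scale (adjusted p = 4.46e-08), and Aldh18a1, which feeds proline synthesis, by 1.69 ± 0.22 (adjusted p = 6.05e-07). Atf5, Atf3, Cebpb and Cebpg were the 4 that fell; Atf5, Cebpb and Cebpg were not called without normalization factors. Atf4 itself was not called (0.36 ± 0.21, adjusted p = 0.161).

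The islet comparisons, which use separate controls, are set side by side for the 8 synthetases lower with the TSC1 KO label. Of all 1434 genes lower with that label and tested in both, 30.6% were higher and 26.1% lower in Db islets, and the counts for the synthetases, 2 and 1 of 8, are read against these. Mars1 and Sars fell in islets labelled TSC1 KO and rose in Db islets, and Gars fell in both. Cars and Yars fell with the TSC1 KO label and were not called in Db islets, and 8 cytosolic enzymes that rose in Db islets were not called with the TSC1 KO label. No mitochondrial enzyme was called in both; 10 of the 16 were called in neither. The difference between the comparisons was not tested. Exons of Mars1 overlap Ddit3, a stress-response gene on the opposite strand, by up to 68 bases, and Ddit3 moved with it in both, by -2.27 ± 0.48 (adjusted p = 0.0338) with the TSC1 KO label and by 1.04 ± 0.23 (adjusted p = 0.00048) in Db islets.

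Lars2, the mitochondrial leucine enzyme, made up most of the mitochondrial sum in islets and was not called in any comparison. It stood at 2359 and 2632 CPM in RC control islets and 3895 and 3438 CPM in islets labelled TSC1 KO (0.55 ± 0.38, adjusted p = 0.336), without overlap. In the Db table it stood at 338 and 440 CPM in controls and 431 and 371 CPM in Db islets (0.04 ± 0.21, adjusted p = 0.883). In β-cells it stood at 120, 162 and 120 CPM in neonates and 163, 290 and 51.1 CPM in adults (0.33 ± 0.59, adjusted p = 0.838), so that its adult libraries spread more widely than the ages differed.

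A stretch of 72 bases of Lars2 transcripts matches the noncoding gene Gm15564 at 98.6% identity, and 97 bases match AA474408 at 94.8%. Gm15564 stood at 150 and 194 CPM in RC control islets and 224 and 216 CPM with the TSC1 KO label, and at 15.5 to 21.3 CPM in the 4 libraries of the Db table. In β-cells it stood at 13.7 to 25.3 CPM in neonates and at 9.56, 187 and 8.64 CPM in adults. Adult 2 was the highest β-cell library for both Lars2 and Gm15564. With an identity of at least 90% and an E-value of at most 1e-10, a limit that leaves out short stretches, the search listed no match of Lars2 to mt-Rnr2, the large ribosomal RNA of mitochondria. The level of mt-Rnr2 was 1516 and 707 CPM in RC controls and 2904 and 4332 CPM with the TSC1 KO label. In the Db table it was 38.0 and 38.6 CPM in controls and 12.9 and 7.08 CPM in Db islets. In β-cells it was 25750 to 37480 CPM in neonates and 41360 to 80370 CPM in adults. It was called higher in adults there (0.97 ± 0.23, adjusted p = 0.0339), but not with limma-voom. How far shared sequence enters the Lars2 counts was not tested.

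**Figure D5:**
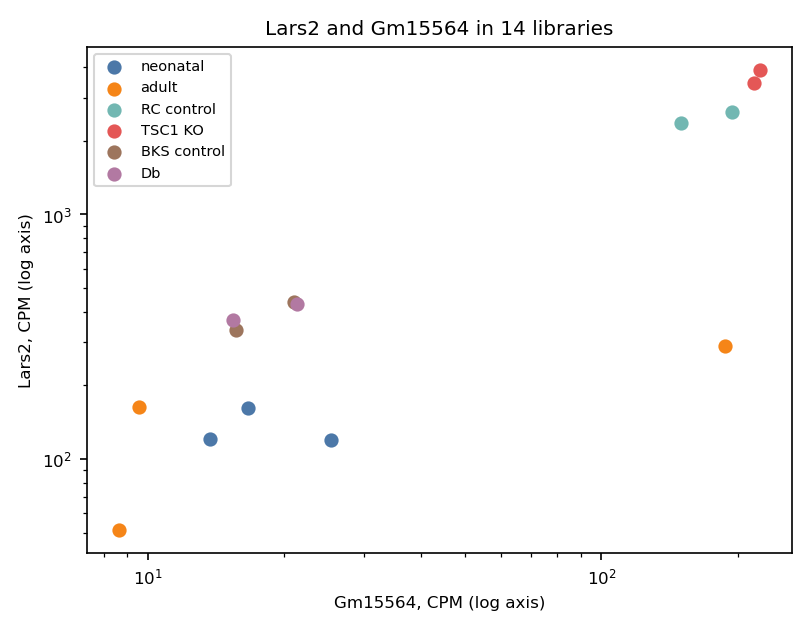
CPM of Lars2 (vertical log axis) and Gm15564 (horizontal log axis) in the 14 libraries, coloured by group; levels come from 3 tables scaled separately. The RC control and TSC1 KO libraries lie at the upper right, and adult 2, at 187 and 290 CPM, lies apart from the other β-cell libraries.

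Exons of 13 synthetases overlap a gene of the tables on the opposite strand. The library kit marks the strand, but the sources used here do not give the strand setting of the counting, so the counts of these genes are uncertain where the overlap is long. The longest overlap was 2034 bases between Iars2 and Rab3gap2, and Fars2 overlapped Nrn1 by 501 bases. Cars2, called with the TSC1 KO label, overlaps Naxd by 215 bases, and Naxd differed there by -0.18 ± 0.22 (adjusted p = 0.597). Iars shares 1656 bases at 96% identity with Gm4849, and Aars shares 1326 bases with Exosc6 on the same strand; neither gene has a row in the tables.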

How the data were processed

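The authors deposited 3 tables of raw counts, each value a whole number of reads assigned to a gene and not normalized. The tools listed in the submitters' processing notes are GSNAP, cutadapt (1.13), HTSeq (0.7.1) and DESeq2 (1.16.0), beside 2 build names, mm9 and NCBIM37, whose use is not stated. Rows that name no gene were left out of totals. Symbols were matched for 32620 of 37310 identifiers (87.4%). Groups came from the sample titles, and the 2 columns with the same heading were used as replicates of the neonatal group.

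Each table was fitted alone with edgeR 4.0.16 in R 4.3.3: filterByExpr (minimum count 10, minimum total 15), TMM, robust quasi-likelihood F test, two-sided, Benjamini-Hochberg adjustment. The SE is the fold change divided by the square root of F. Alternatives were DESeq2 1.42.0, limma-voom (limma 3.58.1), other scalings, no filter, left-out libraries, a replicate block and, added after seeing the data, removal of GC and length trends. The fit was tested on simulated data. Replicates differed by more than counting noise (chi-square per degree of freedom 10.0 to 81.3). Shared stretches were found with BLAST 2.17.0 and exon overlaps with bedtools 2.31.1 in GENCODE transcripts, and promoter sequence came from RefSeq, without the windows on chromosome 18. A further promoter match is not reported here.

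All members are described; the text gives CPM per library for those past the threshold (at most 12 per comparison in full), the 3 largest differences that did not pass, and Eprs, Gars, Kars, Wars and Lars2. Members and gene lists were chosen with earlier results of these data known.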

Additional observations from a re-analysis of the deposited data

How the results depend on the processing

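No synthetase called in a comparison as reported reversed direction there under the alternatives run; Cars in β-cells and Dars in Db islets, which were not called, passed in the opposite direction without neonatal 3a (0.81 against -0.02) and with the GC trend removed (0.67 against -0.03). In adult against neonatal β-cells, DESeq2 called 1589 genes against 999, and with the GC trend, or the GC and length trends, removed 0 cytosolic synthetases were called against 1. Leaving out 1 library gave 405 to 1380 genes, 1 to 4 cytosolic and 0 mitochondrial synthetases, the highest counts without neonatal 3a. In islets labelled TSC1 KO, DESeq2 and limma-voom each called 1 mitochondrial synthetase against 3, Ears2 and Sars2 in turn. With GC and length trends removed 8 cytosolic synthetases against 5 were called. Leaving out 1 library gave 0 to 4015 genes, 0 to 7 cytosolic and 0 to 4 mitochondrial synthetases, with 0 without either TSC1 KO library. With a replicate block the counts were 1648 genes against 2703, 2 cytosolic and 1 mitochondrial synthetase; the block moved no count of Db islets by more than 1.5 times. Across genes, same-numbered samples of the islet tables did not deviate together (r = -0.062 over 14515 genes and -0.056 over 14369 genes). With 2 libraries a group this cannot settle whether same-numbered samples were paired. No paired analysis was possible because, for the β-cell table, 2 columns carry the number 3 and none the number 2. In Db islets 3 mitochondrial synthetases were called, against 5 with DESeq2 size factors, 6 without normalization factors (4 higher and 2 lower), and 5 without the filter on low counts, with the GC trend removed and with GC and length trends removed. Leaving out 1 library gave 4419 to 6666 genes, 7 to 14 cytosolic and 2 to 5 mitochondrial synthetases, with the lowest counts without Db 2. The cause of these shifts was not tested. The difference between the cytosolic and mitochondrial medians was 0.05, -0.11 and 0.57; it ran from -0.15 to 0.40, from -0.24 to -0.05 and from 0.41 to 0.69 with 1 library left out. With 2 or 3 libraries a group and few counts for Mars2, Pars2, Wars2 and Yars2, differences of these genes were not detectable at this depth unless large.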
